A study of Mus musculus with 9 samples.

Results

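Ephrins are the membrane-bound ligands of the Eph receptor tyrosine kinases. The 8 mouse ephrin genes, Efna1 to Efna5 and Efnb1 to Efnb3, were followed over 3 genotypes in embryonic cerebral cortex, using the probe sets that the platform annotation gives to 1 of these genes alone. That choice yielded 84 probe sets of 1256831 on the array, of which 83 passed a filter on dim signal, and all 8 genes were among the 16854 genes measured. Signals came from 9 Affymetrix Mouse Exon 1.0 ST arrays, which carry probe sets along exons, hybridised with RNA from mouse cerebral cortex at stage E13.5. There were 3 arrays from Sfpq-/- embryos, 3 from Sfpq+/- embryos and 3 from controls labelled wild type, with 1 array per sample. The gene removed, Sfpq, codes for a DBHS-family protein of the nucleus that binds RNA and acts in transcription and RNA processing.

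Titles and genotype fields gave the groups, since the extraction note lists Sfpq+/- 2 times and never lists Sfpq-/-. How the Sfpq allele was made, in which cells it was lost, and the strain are not given in the labels. Separate litters are not stated for any group, and p-values here therefore reflect only how much these arrays spread. The tissue was bulk cortex, in which fewer cells of a type and less RNA per cell cannot be told apart.

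Ephrins and Eph receptors meet where cells touch, and signals pass both ways: forward into the cell with the receptor and in reverse into the cell with the ephrin. A-class ephrins are tied to the membrane by a lipid (GPI) anchor, whereas B-class ephrins cross it and carry a cytoplasmic tail that binds SH2 and PDZ domain proteins. In the developing forebrain the system is known for contact repulsion of axons, topographic mapping of thalamic and cortical projections, the sorting of cells at boundaries, and control of progenitors and migrating neurons.

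Array medians ran from 5.648 to 5.697 on the log2 scale, the correlation between arrays lay between 0.964 and 0.980, and no pair of arrays was identical. Sfpq served as the check of the labels. Over the 12 of its 23 probe sets with a control mean above 10, signal was 10.08, 10.31 and 9.99 in Sfpq-/- arrays, 12.08, 11.87 and 11.93 in Sfpq+/- arrays, and 12.09, 12.07 and 12.12 in control arrays. Choosing these 12 by their control signal can favour a fall. The gene level, over all 23 probe sets, was 1.15 below control in Sfpq-/- arrays (log2 difference -1.15, limma adjusted p = 0.000787). Sfpq was thus low on the 3 arrays labelled Sfpq-/- alone. The Sfpq+/- arrays did not pass against controls (gene level difference 0.12, limma adjusted p = 0.9), so this check does not tell those 2 groups apart. The 11 measured genes of a list of cortical progenitors and neurons had group means of at least 8.66 in every genotype. Gene levels use only probe sets with a mean above 5.64, so lying above that value is no check of the tissue. Xist signal marked Sfpq-/- replicate 1 and control replicates 1 and 2 as female and the other 6 arrays as male, so sex was not balanced over the genotypes.

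Promoter sequence is shown for the 3 ephrin genes that changed in Sfpq-/- cortex and have an entry among RefSeq promoters on build GRCm38.p6. Each line runs 5′ to 3′ over the 250 bases before the start of the gene, on the strand of the gene. Capitals mark GC boxes, the letters GGGCGG or their reverse complement CCGCCC.
Efna5, chr17:62881318-62881567, minus strand: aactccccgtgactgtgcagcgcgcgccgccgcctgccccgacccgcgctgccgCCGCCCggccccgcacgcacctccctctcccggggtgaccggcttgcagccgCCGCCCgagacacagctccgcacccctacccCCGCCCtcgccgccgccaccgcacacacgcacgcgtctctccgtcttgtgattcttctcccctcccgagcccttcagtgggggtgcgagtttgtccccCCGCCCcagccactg
Efnb2, chr8:8661243-8661492, minus strand: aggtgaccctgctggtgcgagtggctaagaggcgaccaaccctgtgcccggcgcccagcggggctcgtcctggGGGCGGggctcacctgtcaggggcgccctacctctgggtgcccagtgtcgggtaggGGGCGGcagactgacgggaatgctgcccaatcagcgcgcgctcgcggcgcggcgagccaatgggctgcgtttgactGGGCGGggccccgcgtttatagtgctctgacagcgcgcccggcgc
Efna4, chr3:89338029-89338278, minus strand: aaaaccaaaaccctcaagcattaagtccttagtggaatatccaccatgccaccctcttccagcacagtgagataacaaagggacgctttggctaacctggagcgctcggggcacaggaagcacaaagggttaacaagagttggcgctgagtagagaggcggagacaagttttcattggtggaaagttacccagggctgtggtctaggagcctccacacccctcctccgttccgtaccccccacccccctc

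Entries matched 7 of the 8 ephrin genes, all but Efnb3. The Efna5 window held 4 GC boxes and 32 CpG dinucleotides, and 74.8% of its bases were G or C. The Efnb2 window held 3 GC boxes and 27 CpG dinucleotides at 72% G or C. Both windows lay above the upper quartile of all 32851 promoter windows of the same length, which was 16 CpG dinucleotides and 61.2% G or C. The Efna4 window held no GC box and 7 CpG dinucleotides at 54.4% G or C. Genes that did not pass had windows with and without GC boxes. Efna2 held 2 GC boxes and 25 CpG dinucleotides at 73.6% G or C. The Efna3 windows held 3 GC boxes each, with 31 and 19 CpG dinucleotides. The Efna1 windows held 2 and 1 GC boxes, with 18 and 16 CpG dinucleotides. Efnb1 held no GC box and 13 CpG dinucleotides at 60% G or C. A link of these letters to the changes was not tested. A GC box occurred in 32.74% of all windows. The search also covered CCAAT and TATAAA, on both strands. CCAAT had 2 matches for Efnb2 and 1 each for Efna4 and Efnb1, and was present in 33.85% of windows. TATAAA had 1 match for Efnb2 and was present in 12.37% of windows. A reverse GC box can share letters with CCAAT. A match describes letters and is not a bound site.

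In Sfpq-/- against control cortex, 4 of the 8 ephrin genes passed the test and they went both ways in both classes. Efna5 fell by 0.89 and Efnb2 fell by 0.43 on the log2 scale, while Efnb3 was 0.68 higher and Efna4 0.51 higher. Among all 16854 genes 12.1% passed in this comparison, 5.98% higher and 6.12% lower. The groups did not overlap for 6 of the 8 ephrin genes, against 26.9% of all genes. The median difference of the 8 genes was -0.04, beside 0.03 over all genes. A gene level here is the mean log2 signal of its kept probe sets, and differences were tested in limma over all 9 arrays with Benjamini-Hochberg adjustment over all genes and a threshold of 0.05. Levels are not compared between genes, since probe sets differ in brightness.

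**Figure D1:**
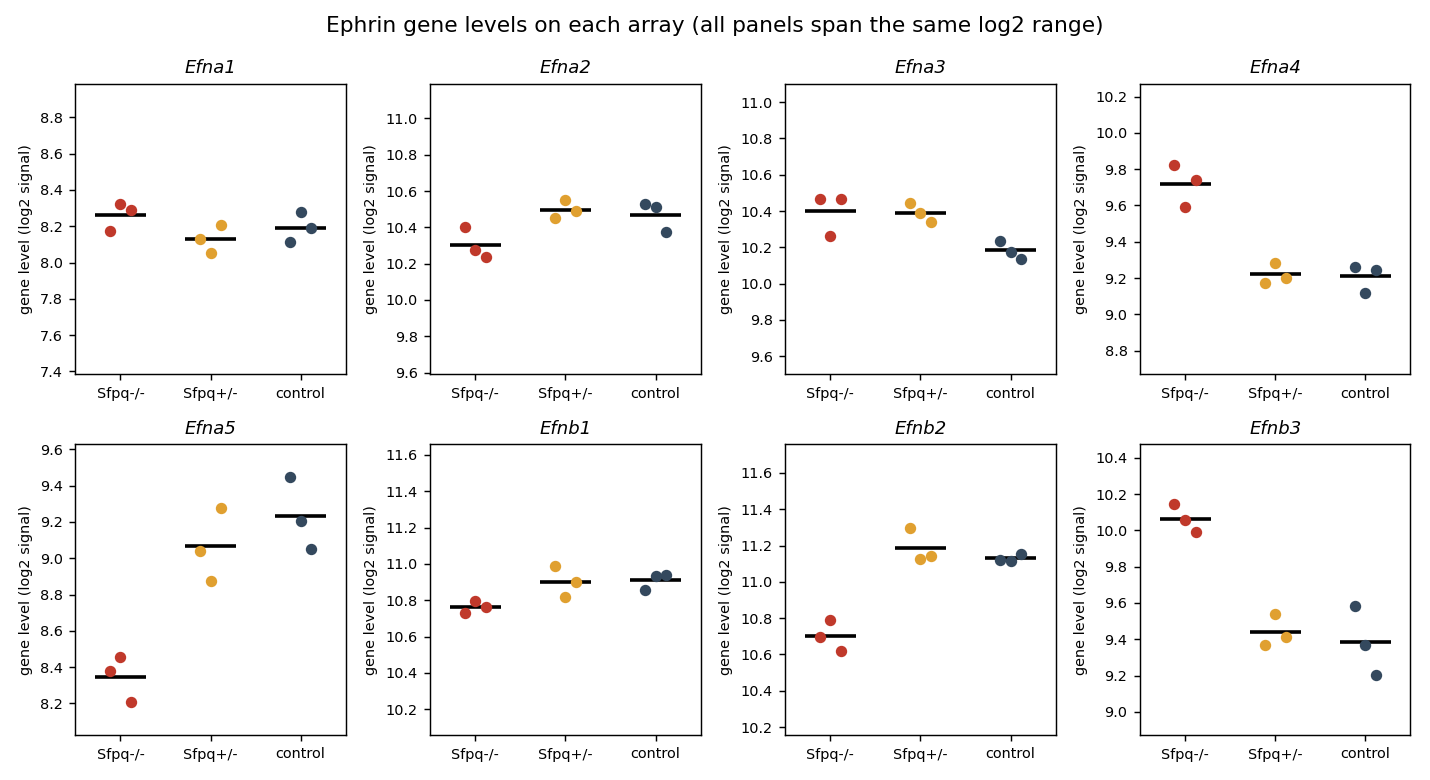
Gene level (mean log2 signal of kept probe sets) of the 8 ephrin genes on each array, with a black line at the mean of each genotype (n = 3); each panel has its own axis position and all have the same length of axis. Sfpq-/- arrays sit below the others for Efna5 and Efnb2 and above them for Efna4 and Efnb3.

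Among the A-class ligands, Efna5 encodes ephrin-A5, a repellent ligand known for thalamocortical and retinal mapping. Its level was 8.38, 8.45 and 8.21 in Sfpq-/- arrays, 9.04, 8.88 and 9.28 in Sfpq+/- arrays, and 9.45, 9.20 and 9.05 in control arrays. All 3 Sfpq-/- arrays were below every other array, while Sfpq+/- and control arrays overlapped. The difference of -0.89 (SE 0.13, 95% interval -1.17 to -0.61) equals a level 1.85-fold lower in Sfpq-/- cortex (limma adjusted p = 0.000794). Of the 16854 genes, 222 had a lower change than Efna5.

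Efna4 encodes ephrin-A4, a further GPI-anchored ligand. Its level was 9.82, 9.59 and 9.74 in Sfpq-/- arrays, 9.17, 9.29 and 9.20 in Sfpq+/- arrays, and 9.26, 9.12 and 9.24 in control arrays. Every Sfpq-/- array was above all the others, and the other groups overlapped each other. The Sfpq-/- level was 1.42-fold higher than control (log2 difference 0.51, SE 0.08, 95% interval 0.33 to 0.69, limma adjusted p = 0.0018). Taken as the median of its probe sets in place of the mean, the Efna4 difference was 0.87. On every Sfpq-/- and control array that median was the single probe set 5208786, which had the largest difference of the 9 kept. Only 377 genes had a higher change than the 0.51 of the Efna4 mean.

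The other A-class ligands did not pass the test. Efna3, encoding ephrin-A3, had 10.47, 10.26 and 10.47 in Sfpq-/- arrays, 10.44, 10.39 and 10.34 in Sfpq+/- arrays, and 10.24, 10.18 and 10.14 in control arrays. All 6 arrays with a mutant allele therefore lay above the 3 controls, by 0.22 in Sfpq-/- cortex (SE 0.08, limma adjusted p = 0.114). Efna3 passed in 1 of the 6 fits that leave out a Sfpq-/- or control array (limma adjusted p from 0.0328 to 0.325 over the 6). That fit left out Sfpq-/- replicate 2, the lowest of its group, which by itself raises the difference, here to 0.28. Efna2, encoding ephrin-A2, averaged 10.31 ± 0.09 in Sfpq-/-, 10.50 ± 0.05 in Sfpq+/- and 10.47 ± 0.08 in control cortex (SD, n = 3 each). The Sfpq-/- arrays overlapped controls and lay 0.17 below them on average (log2 difference -0.17, limma adjusted p = 0.223). Efna1, encoding ephrin-A1, averaged 8.26 ± 0.08 in Sfpq-/-, 8.13 ± 0.08 in Sfpq+/- and 8.19 ± 0.08 in control cortex, with overlapping arrays. Its difference was 0.07 with a 95% interval of -0.11 to 0.24 (limma adjusted p = 0.688).

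Among the B-class ligands, Efnb2 encodes ephrin-B2, which marks arterial endothelium and is made by neural progenitors and neurons. Its level was 10.70, 10.79 and 10.62 in Sfpq-/- arrays, 11.30, 11.13 and 11.14 in Sfpq+/- arrays, and 11.12, 11.11 and 11.15 in control arrays. The 3 Sfpq-/- arrays were the lowest of the 9, and Sfpq+/- arrays overlapped controls. Against control, Efnb2 was lower 1.35-fold in Sfpq-/- cortex (log2 difference -0.43, SE 0.08, 95% interval -0.60 to -0.26, limma adjusted p = 0.00376). A lower change was found for 747 genes.

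Efnb3 encodes ephrin-B3, known as a midline barrier to corticospinal axons. Its level was 10.14, 10.06 and 9.99 in Sfpq-/- arrays, 9.37, 9.54 and 9.41 in Sfpq+/- arrays, and 9.58, 9.37 and 9.20 in control arrays. The Sfpq-/- arrays were again apart, here above all others, and the other groups overlapped. Efnb3 was 1.60-fold higher in Sfpq-/- cortex (log2 difference 0.68, SE 0.10, 95% interval 0.46 to 0.90, limma adjusted p = 0.00103), with 178 genes showing a higher change.

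Efnb1, on the X chromosome, encodes ephrin-B1, whose loss causes craniofrontonasal syndrome in humans. Its level was 10.73, 10.79 and 10.76 in Sfpq-/- arrays, 10.99, 10.81 and 10.90 in Sfpq+/- arrays, and 10.86, 10.93 and 10.94 in control arrays. The Sfpq-/- arrays lay just below the rest, but the difference of -0.15 (SE 0.07, 95% interval -0.31 to 0.01) did not pass (limma adjusted p = 0.241). With embryo sex as a covariate it was -0.16 (limma adjusted p = 0.228).

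**Figure D2:**
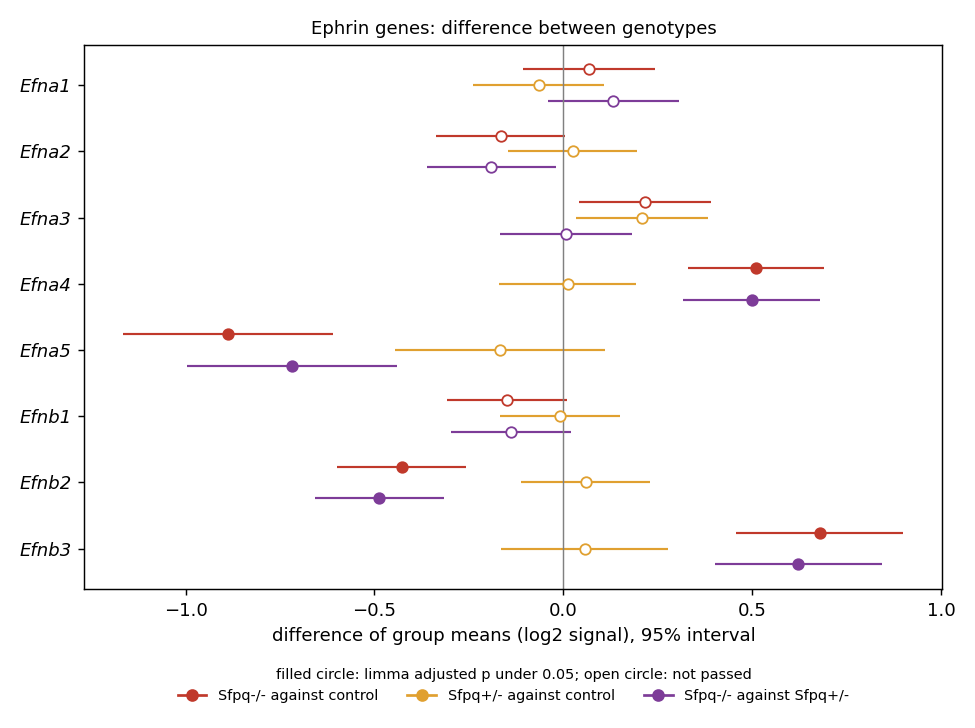
Difference of group means in log2 signal for each ephrin gene, with its 95% interval, in Sfpq-/- against control, Sfpq+/- against control and Sfpq-/- against Sfpq+/- cortex; filled circles passed the limma test. Efna5 and Efnb2 lie left of 0 and Efna4 and Efnb3 right of 0 in both comparisons of Sfpq-/- cortex.

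Because sex was unbalanced, the 4 genes that passed were also read within male embryos, where only 1 control array remains and no test was made. Efna5 averaged 8.33 in 2 male Sfpq-/- arrays, 9.07 in 3 Sfpq+/- arrays and was 9.05 in the male control. Efna4 averaged 9.67 in male Sfpq-/-, 9.22 in Sfpq+/- and 9.24 in the male control. Both genes stood in the same direction among males as over all arrays, and so did the B-class genes. Efnb2 averaged 10.70 in male Sfpq-/-, 11.19 in Sfpq+/- and 11.15 in the male control, and Efnb3 averaged 10.02, against 9.44 in Sfpq+/- and 9.20 in the male control. With sex as a covariate over all 9 arrays the same 4 genes passed (limma adjusted p from 0.000541 to 0.00846).

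In Sfpq+/- against control cortex no ephrin gene passed, and neither did any of the 16854 genes (0%, with 715 at an unadjusted p under 0.05 in limma). Efna3 was the single ephrin gene under that unadjusted level, 0.21 higher in Sfpq+/- cortex (95% interval 0.03 to 0.38, limma adjusted p = 0.886), and the only ephrin gene whose arrays did not overlap, against 12.5% of all genes. The other 7 ephrin genes had differences between -0.17 (Efna5) and 0.06. For Efnb2 the 95% interval ran from -0.11 to 0.23, and for Efnb3 from -0.17 to 0.28. The interval of Efna5 ran from -0.45 to 0.11, and all 11 of its kept probe sets were below control on average, with a median of -0.22 and none passing.

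In Sfpq-/- against Sfpq+/- cortex, which shares its Sfpq-/- arrays with the first comparison, 4 ephrin genes passed, 2 higher and 2 lower, against 11.8% of all genes (4.58% higher and 7.25% lower). Efnb3 was 1.54-fold higher in Sfpq-/- cortex (log2 difference 0.62, limma adjusted p = 0.00168) and Efna4 was 0.50 higher (limma adjusted p = 0.00189). Efna5 fell by 0.72 on the log2 scale (limma adjusted p = 0.00286) and Efnb2 fell by 0.49 (limma adjusted p = 0.00152). Neither Efna2 (-0.19, limma adjusted p = 0.168) nor Efnb1 (-0.14, limma adjusted p = 0.291) passed, though the groups did not overlap for either, nor for the 4 genes that passed (6 of 8, against 26.9% of all genes). Efna3 differed by 0.01 between the mutant genotypes, and Efna1 by 0.13 (limma adjusted p = 0.967 and 0.365).

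At the level of single probe sets, 12 of the 83 kept ephrin probe sets passed in Sfpq-/- against control, 7 higher and 5 lower, where 1.75% of all 628415 kept probe sets passed (0.561% higher and 1.19% lower). A total of 34 had a positive and 49 a negative difference, and 50 did not overlap between the groups, against 15.0% of all probe sets. None passed in Sfpq+/- against control (0% of all probe sets; 3 ephrin probe sets were at an unadjusted p under 0.05 in limma). In Sfpq-/- against Sfpq+/-, 5 passed higher and 3 lower, against 1.93% of all (0.425% higher and 1.50% lower). The count of 12 rests on all arrays: it was 5 without control replicate 1, 1 without control replicate 2, 6 without control replicate 3, 2 without Sfpq-/- replicate 1, 7 without Sfpq-/- replicate 2 and 8 without Sfpq-/- replicate 3. How many of all probe sets passed without each array was not counted. Where the probe sets lie along the genes was not used here.

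**Figure D3:**
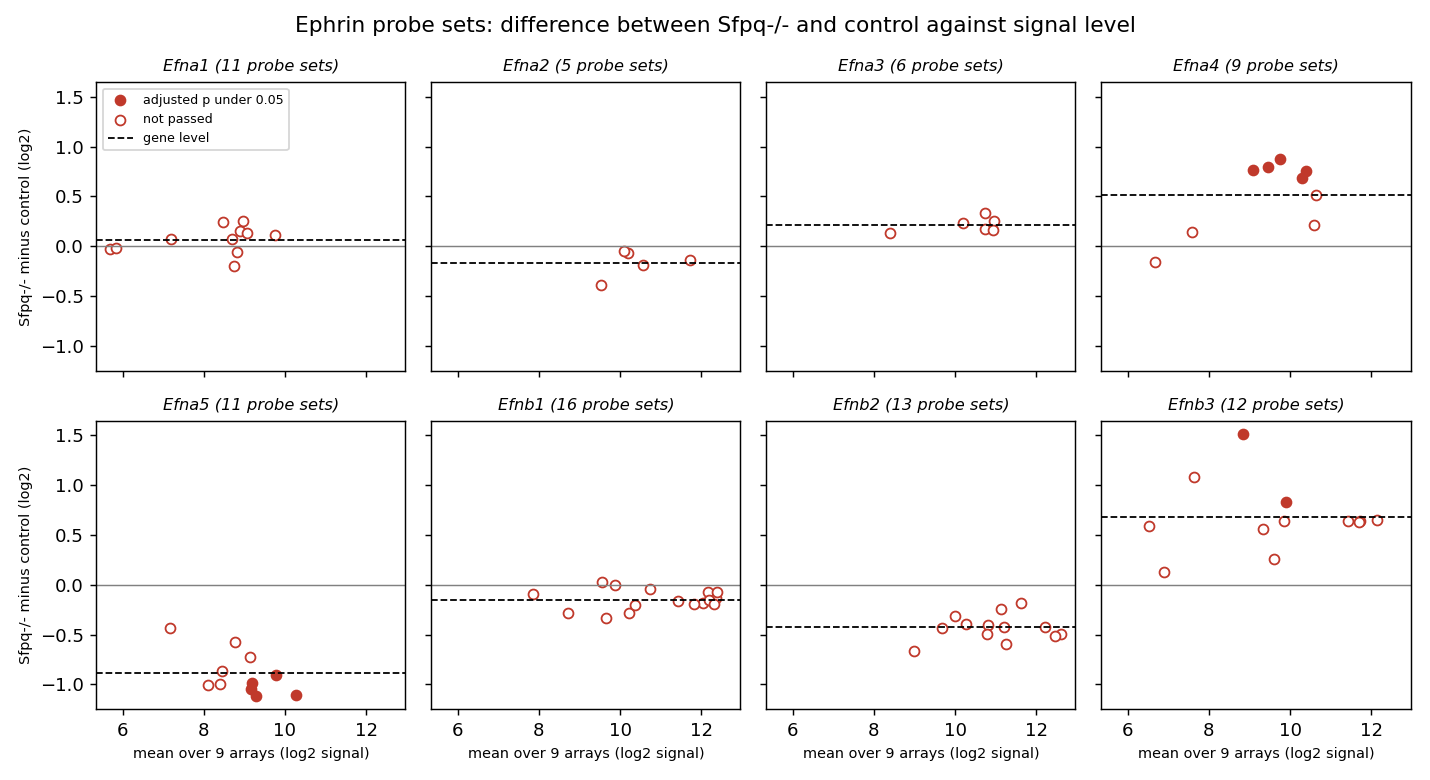
Log2 difference of Sfpq-/- against control (vertical axis) against mean log2 signal over the 9 arrays (horizontal axis) for every kept probe set of each ephrin gene. Filled points passed the limma test over all kept probe sets, and the dashed line is the difference of the gene level. All 11 probe sets of Efna5 and all 13 of Efnb2 lie below 0, and all 12 of Efnb3 lie above 0.

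For Efna5 all 11 probe sets were lower in Sfpq-/- than in control cortex, from -1.12 to -0.43 with a median of -0.98, none overlapped between the groups, and 5 passed. Probe set 4633748 read 8.75, 8.58 and 8.48 in Sfpq-/- arrays, 9.50, 9.31 and 9.71 in Sfpq+/- arrays, and 9.93, 9.66 and 9.58 in control arrays (limma adjusted p = 0.0077). By this measure 5562658 (-1.11), 4599623 (-1.05) and 5608894 (-0.91) also passed, as did 1 further probe set. Efnb2 had all 13 probe sets below control, from -0.67 to -0.18 with a median of -0.42, and 11 did not overlap, but none passed alone; its smallest p was at 5310683 (-0.60, limma adjusted p = 0.116). The fall of both genes was therefore spread over their probe sets and did not come from 1 of them.

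Efnb3 had all 12 probe sets above control, from 0.12 to 1.51 with a median of 0.64, and 11 of them did not overlap. Of these, 2 passed: 4526809 (0.83, limma adjusted p = 0.0122) and 5019818, the larger. Probe set 5019818 read 10.04, 9.66 and 9.20 in Sfpq-/- arrays, 8.58, 9.17 and 8.46 in Sfpq+/- arrays, and 8.40, 8.15 and 7.80 in control arrays (limma adjusted p = 0.0225). Its lowest Sfpq-/- array was close to the highest Sfpq+/- array, and control arrays were below all Sfpq-/- arrays.

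Of the 9 kept probe sets of Efna4, 8 were above control, 5 passed and 6 did not overlap, with a median of 0.68 and a highest value of 0.87. Probe set 5208786 read 10.40, 10.16 and 10.17 in Sfpq-/- arrays, 9.64, 9.68 and 9.56 in Sfpq+/- arrays, and 9.58, 9.26 and 9.28 in control arrays. Also among the 5 were 5434191 (0.80), 5143830 (0.76) and 4559686 (0.68), the limma adjusted p of these 4 lying between 0.0129 and 0.0275. The 1 probe set below control, 5452944, read 6.44, 6.62 and 6.88 in Sfpq-/- arrays and 7.04, 6.55 and 6.83 in control arrays, a difference of -0.16 with overlapping arrays. That probe set is dim, with a mean of 6.66 over all arrays. Set against the mean of its gene it deviated by -0.67, which did not pass (limma adjusted p = 0.133).

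The other 4 genes had no probe set that passed. All 6 of Efna3 were above control, from 0.14 to 0.33, and all 5 of Efna2 were below, from -0.39 to -0.05. Of the 16 probe sets of Efnb1, 15 were below control, with a median of -0.16. The 11 of Efna1 lay on both sides, from -0.20 to 0.25. The smallest p in each was at 5489099 of Efna3 (0.33), 4686406 of Efna2 (-0.39), 4420706 of Efnb1 (-0.29) and 4522868 of Efna1 (0.25), with limma adjusted p between 0.457 and 0.679.

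Whether a probe set moved otherwise than its own gene was asked by its deviation from the gene mean on the same array. None of the 83 ephrin probe sets passed in Sfpq-/- against control, where 0.926% of 248590 probe sets did (0.483% higher and 0.444% lower), and 14 were at an unadjusted p under 0.05 in limma, as were 23168 of the 248590. The smallest p belonged to probe set 4804900 of Efnb3, whose difference was 0.56 below the mean of its gene (deviation -0.56, limma adjusted p = 0.111). That probe set is dim, with a mean of 6.89 over all arrays. Probe set 5019818 of the same gene deviated the other way (0.83, limma adjusted p = 0.118). The next genes by this measure were Efna4, with 5452944 as given above, Efna5, with 4960235 (0.46, limma adjusted p = 0.380), and Efnb2, with 4892878 (0.25, limma adjusted p = 0.422). No ephrin probe set passed this test in either other comparison, where 0% (Sfpq+/- against control) and 0.839% (Sfpq-/- against Sfpq+/-; 0.445% higher and 0.394% lower) of all probe sets passed and 3 ephrin probe sets each were at an unadjusted p under 0.05 in limma. Over all probe sets 9560 were at that level in Sfpq+/- against control and 21716 in Sfpq-/- against Sfpq+/-.

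The receptors of these ligands were read in the same fit. Of 14 Eph receptor genes, all measured, 6 fell and 1 rose in Sfpq-/- against control, where 6.12% of all genes fell and 5.98% rose. The other 7 did not pass, and the median difference of the 14 was -0.06, beside 0.03 over all genes. Epha5, a receptor for A-class ephrins, read 8.51, 8.77 and 8.40 in Sfpq-/- arrays, 10.40, 10.34 and 10.21 in Sfpq+/- arrays, and 10.15, 10.04 and 10.25 in control arrays. The Sfpq-/- arrays lay far below the others, at a log2 difference of -1.59 from control (SE 0.10, limma adjusted p = 4.17e-06).

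Ephb2 and Ephb1, receptors for B-class ephrins, fell by 1.39 (limma adjusted p = 1.24e-06) and by 1.37 (limma adjusted p = 3.77e-06) on the log2 scale. Epha3 fell by 0.81 (limma adjusted p = 0.000349), Epha4, a receptor for both classes, by 0.50 (limma adjusted p = 0.00251), and Epha6 by 0.27 (limma adjusted p = 0.0364). Ephb3 was 0.41 higher (limma adjusted p = 0.00236). Epha6 passed in 1 of the 6 fits that leave out a Sfpq-/- or control array, the one without Sfpq-/- replicate 3 (limma adjusted p from 0.0272 to 0.135 over the 6), and the other 6 receptors passed in all of them. Epha2 (0.22), Epha1 (0.10), Epha7 (-0.09) and Ephb6 (0.04) did not pass (limma adjusted p from 0.124 to 0.793). None passed in limma in Sfpq+/- against control (1 at an unadjusted p under 0.05), and 1 passed higher and 5 lower in Sfpq-/- against Sfpq+/-, against 4.58% and 7.25% of all genes.

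**Figure D4:**
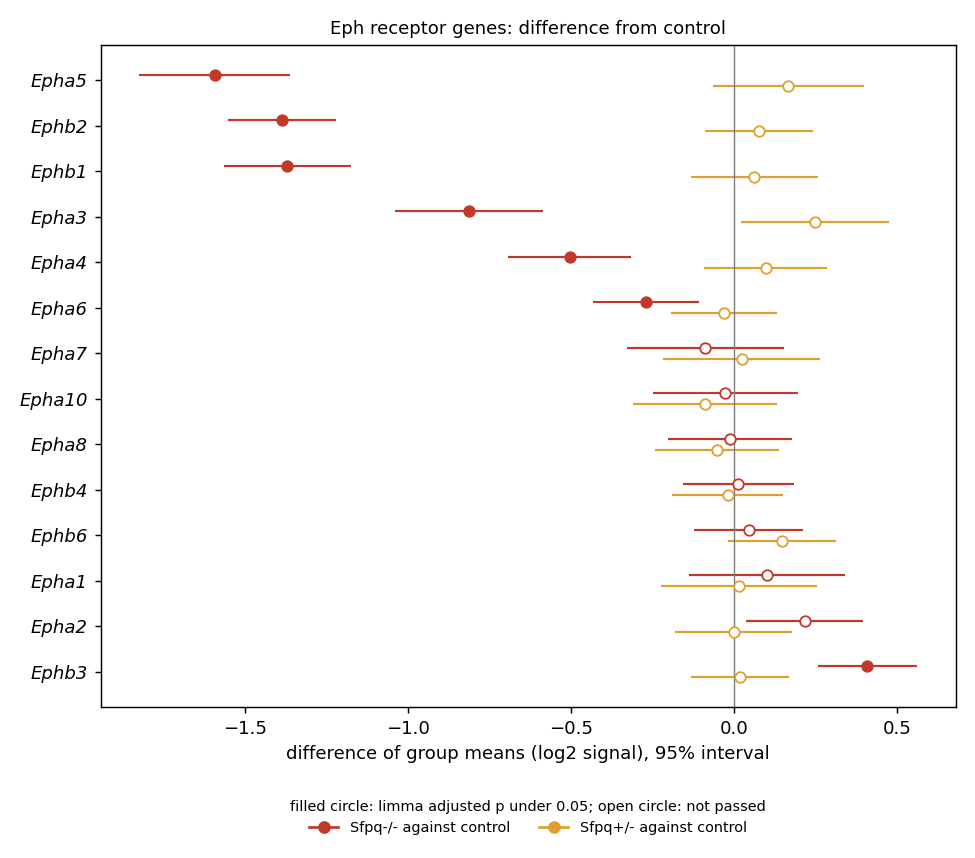
Difference of group means in log2 signal for the 14 Eph receptor genes, with 95% intervals, in Sfpq-/- against control and in Sfpq+/- against control; filled circles passed the limma test. Epha5, Ephb2 and Ephb1 have the lowest values, between -1.59 and -1.37 in Sfpq-/- against control, and Ephb3 lies at 0.41.

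Of 40 listed adaptors, kinases, GTPase regulators and other partners of ephrin and Eph signalling, 39 were measured (all but Rock2). In Sfpq-/- against control 2 were higher and 8 were lower, where 5.98% of all genes were higher and 6.12% lower. The other 29 did not pass, and the median of the 39 was 0.08, beside 0.03 over all genes. Among partners that bind the ephrin-B tail through PDZ domains, Grip1, a scaffold, fell by 1.05 (limma adjusted p = 8.21e-06), whereas Ptpn13, a phosphatase, was 0.90 higher (limma adjusted p = 6.77e-05) and Sdcbp, encoding syntenin, was 0.25 higher (limma adjusted p = 0.0443). Sdcbp passed in 1 of the same 6 fits, again without Sfpq-/- replicate 3 (limma adjusted p from 0.0431 to 0.139). The Src family kinase Fyn fell by 0.67 (limma adjusted p = 0.000817). Among regulators of small GTPases, Chn2, encoding beta-chimaerin, fell by 0.94, Tiam2 by 0.70 and Kalrn, encoding kalirin, by 0.62 (limma adjusted p at most 0.000976).

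Ptpro, a phosphatase known to act on Eph receptors, fell by 1.46 (limma adjusted p = 6.98e-06). Anks1b, an ankyrin repeat and SAM domain protein, fell by 0.54 (limma adjusted p = 0.00363), and Ntrk2, encoding the neurotrophin receptor TrkB, fell by 0.48 (limma adjusted p = 0.000678). None of the 39 passed in limma in Sfpq+/- against control (3 at an unadjusted p under 0.05), and 2 were higher and 9 lower in Sfpq-/- against Sfpq+/-, against 4.58% and 7.25% of all genes.

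The ephrin genes differ in length. In the RefSeq gene table of GRCm38.p6, matched by symbol, Efna5 spans 278 kb and Efnb2 44.0 kb, whereas Efnb3 spans 7.06 kb and Efna4 4.64 kb. The 4 genes that did not pass span between 9.04 kb (Efna3) and 13.0 kb (Efnb1). Of the 584 tested genes at least as long as Efna5, 295 fell and 17 rose in Sfpq-/- against control (50.5% lower, median -0.35). Of the 1632 genes of 40 to 60 kb, the class of Efnb2, 65 fell (3.98%) and 109 rose. Of the 7854 genes under 20 kb, the class of Efna4 and Efnb3 and of the 4 ephrin genes that did not pass, 146 fell (1.86%) and 436 rose (5.55%). Among the Eph receptors, the 6 that fell span 148 to 969 kb, Epha7, which did not pass, spans 154 kb, and the other 7 span 14.8 to 36.3 kb. The part of gene length in these changes was not tested.

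Efna1, Efna3 and Efna4 lie next to each other on chromosome 3. In the order of that gene table, Dpm3, Slc50a1, Efna1, Efna3, Efna4, Adam15 and Dcst1 follow each other, all were measured, and these neighbours were chosen by position with the ephrin values known. Their log2 differences in Sfpq-/- against control were 0.02, -0.02, 0.07, 0.22, 0.51, 0.12 and 0.02 in that order. Efna4 was the only one of the 7 to pass. Its neighbour Adam15, which encodes a metalloprotease, had a limma adjusted p of 0.335. Efna3 and Efna5 each overlap 2 long noncoding RNA genes in the same table, and whether the array tells the strands apart was not examined.

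Marker lists of other cells and regions were read beside the ephrins. Of the 12 genes of the diencephalon and dorsal midline, 5 were higher in Sfpq-/- than in control cortex (5.98% of all genes) and none lower, and the log2 summed level of the list was 13.42 to 13.67 in Sfpq-/-, 13.16 to 13.37 in Sfpq+/- and 13.21 to 13.24 in control arrays. Olig3 (3.08), Barhl2 (0.88), Tcf7l2 (0.81) and Lhx5 (1.02) led it, with limma adjusted p at most 0.000251. Of 11 microglia and macrophage genes 7 were higher against control (5.98% of all genes) and 2 against Sfpq+/- (4.58% of all genes), with Cd68, Tyrobp, Trem2 and P2ry12 among the 7 and with summed levels of 11.65 to 11.68 in Sfpq-/-, 11.36 to 11.49 in Sfpq+/- and 11.36 to 11.38 in control arrays. Over the 6 fits that leave out a Sfpq-/- or control array, Cd68 passed in all, Tyrobp in 3, Trem2, P2ry12, C1qb and C1qc in 1 each and Cx3cr1 in none. Olig3, Barhl2, Tcf7l2 and Lhx5 passed in all 6.

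For the lists that follow, the shares over all genes in Sfpq-/- against control were 5.98% higher and 6.12% lower. Of the 12 ganglionic eminence and interneuron genes 2 were higher, Gad1 (0.98) and Ebf1 (0.62), and 10 did not pass, with a list median of -0.02. Members that did not pass included Nkx2-1, with a mean of 6.85 in Sfpq-/- and 7.57 in control cortex, and Isl1, with 7.91 in Sfpq-/- and 8.61 in control cortex, and these members, like C1qb, C1qc and Cx3cr1, were named after their values were seen. The summed level of that list was 12.49 to 12.58 in Sfpq-/-, 12.16 to 12.60 in Sfpq+/- and 12.14 to 13.05 in control arrays. Of the 11 endothelial genes, Sox18 was higher (0.27, limma adjusted p = 0.0459) and none was lower. Their summed level was 12.72 to 12.92 in Sfpq-/-, 12.69 to 12.74 in Sfpq+/- and 12.60 to 12.74 in control arrays. Of 7 pericyte genes Rgs5 was higher (0.30), at 11.60 to 11.85 summed in Sfpq-/-, 11.56 to 11.67 in Sfpq+/- and 11.52 to 11.66 in control arrays. None of 10 meningeal and none of 5 measured erythroid genes passed in limma in this comparison (1 and 2 at an unadjusted p under 0.05). Of the 11 cortical genes Neurod6 fell by 0.41 and Eomes by 0.23 on the log2 scale (limma adjusted p = 0.00848 and 0.0489). The summed level of the cortical list was 14.23 to 14.30 in Sfpq-/-, 14.39 to 14.46 in Sfpq+/- and 14.31 to 14.35 in control arrays. The summed levels of the cortical list (lower in Sfpq-/-) and of the diencephalic and microglial lists (higher in Sfpq-/-) did not overlap between Sfpq-/- and control arrays. Of Sox18, Rgs5 and Eomes, each passed in 1 of the 6 fits without 1 array. No marker was at 0 on any array, but the filter on dim probe sets works toward that result, so it does not show that the cell types were present. The part of these lists in the ephrin changes was not tested.

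The genes whose levels followed each changed ephrin most closely over the 9 arrays are given by Pearson correlation, as a description of points that share genotype, arrays and the difference between groups. For Efna5 they were Aurkb (0.981), Astn2 (0.978) and Phf19 (0.973). Efnb2 was followed by Robo2 (0.995), Mad1l1 (0.994) and Stk32b (0.989). Efnb3 was followed by Minar2 (0.992), Btbd3 (0.987) and Mycl (0.986), and Efna4 by Fxyd7 (0.987), Stx3 (0.983) and Eda2r (0.983). Picking genes by correlation with a changed ephrin favours a shared direction, and all of them shared it in Sfpq-/- against control. In that comparison Robo2, a receptor for Slit ligands, was at -1.17, and Minar2 was at 1.07.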

How the data were processed

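Per the labels, total RNA from cerebral cortex was hybridised to 1 exon array per sample, 3 samples a genotype. The authors deposited 1 log2 signal per probe set and array. The submitters' processing notes name Affymetrix Expression Console 1.2.0.20 as the tool. Their background correction, normalization and summary method was not given in the sources used here. Values ran from 0 to 14.98, from which the log2 unit was taken. On all arrays 20744 probe sets were at 0. The signals were used without renormalization.

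Gene names came from the platform annotation, in which 318760 probe sets had 1 gene symbol, 6684 several and 931387 none. RefSeq synonyms updated 3993 of 22296 symbols. Probe sets with a mean over all arrays above 5.64 were kept (628415), and genes with at least 3 of them were averaged. One model with 3 group means was fitted over all 9 arrays in limma 3.58.1 (lmFit, eBayes, R 4.3.3) for genes, probe sets and deviations from the gene mean, with Benjamini-Hochberg adjustment at 0.05. The number of arrays limits the precision: the median standard error of a gene difference was 0.096. Samples were grouped by title. Scripts were tested on simulated data.

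The text names all 8 ephrins, Sfpq, per ephrin the probe sets that passed (at most 4) or the 1 with the smallest p, receptors and partners that passed with up to 4 further receptors, the 3 most correlated genes per changed ephrin, and up to 4 markers per list. Members and lists were chosen with earlier results of these data known. The alternatives tried were 2 filters on dim probe sets, the median of probe sets, quantile normalization, fits of 2 groups, array weights, an intensity trend, embryo sex, a replicate block and leaving out each array. The replicate numbers were not taken to pair samples.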

Additional observations from a re-analysis of the deposited data

How the results depend on the processing

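Efna4, Efna5, Efnb2 and Efnb3 passed under all 16 alternatives in Sfpq-/- against control and in Sfpq-/- against Sfpq+/-, with their direction kept. In Sfpq-/- against control their ranges were 0.46 to 0.87 for Efna4, -0.98 to -0.78 for Efna5, -0.47 to -0.35 for Efnb2 and 0.53 to 0.78 for Efnb3. The 0.87 of Efna4 came from the median of probe sets and rests on probe set 5208786 alone. Array weights, whose estimate did not converge, gave 8 ephrin genes in Sfpq-/- against control, where 11465 of all 16854 genes passed. In Sfpq+/- against control they gave 1 (Efna3, limma adjusted p = 0.0425), where 868 of all genes passed. For Sfpq-/- against control they also gave 11 Eph receptors, 34 signalling partners, 62 ephrin probe sets and 42 deviations. Weights estimated gene by gene, chosen after seeing the data, gave 20 partners, 31 probe sets and 7 deviations, where 4609 of all genes passed. Over the 16 alternatives in Sfpq-/- against control, Efna3 passed in 3, Efnb1 in 2, and Efna1 and Efna2 in 1 each. In Sfpq-/- against Sfpq+/- cortex Efnb1 passed in 1 of 16 (limma adjusted p = 0.017). The 12 ephrin probe sets that passed became 1 with no filter on dim probe sets, 21 with a mean above 7, 3 with arrays of the 2 groups alone, 28 with an intensity trend and 1 to 8 without 1 array. How many of all probe sets or deviations passed was not counted under any alternative. These counts therefore cannot be set against a share and are not read as a result about the ephrins.

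Directions turned in these cases, none of them called in the main setting: Efna1 in Sfpq-/- against control with array weights (-0.089, limma adjusted p = 0.0244) and gene by gene (-0.038), Efna3 in Sfpq-/- against Sfpq+/- with sex as a covariate (-0.021), and in Sfpq+/- against control Efnb3 with the median of probe sets (-0.079), Efna4 with quantile normalization (-0.0089) and Efna2 with array weights (-0.0024). Leaving out 1 array gave -0.023 to 0.053 for Efna2, -0.033 to 0.038 for Efna4, -0.053 to 0.033 for Efnb1 and -0.034 to 0.16 for Efnb3 in Sfpq+/- against control, and -0.026 to 0.076 for Efna3 in Sfpq-/- against Sfpq+/-. The cause was not tested. Leaving out 1 array gave 4 to 5 ephrin genes in Sfpq-/- against control (5 without Sfpq-/- replicate 2, where Efna3 passed), 0 in Sfpq+/- against control, 4 in Sfpq-/- against Sfpq+/-, 6 to 7 receptors, 9 to 12 partners and 0 deviations. Of all 16854 genes, 1311 to 2453 then passed in Sfpq-/- against control and 1397 to 2267 in Sfpq-/- against Sfpq+/-.

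With the replicate number as a block, Efna4 had a limma adjusted p of 0.00249 in Sfpq-/- against control, 4 ephrin genes passed, and 2469 of all genes passed, against 2040 without it. After group means were taken off, correlations of same-numbered arrays ran from -0.06 to 0.57. Those of differently numbered arrays of different groups ran from -0.53 to 0.36. In 10 of 18 checks the correlation was highest with the array's own number. These values do not settle whether the numbers pair the arrays, and the main fit left the numbers out. The block changed no ephrin call. With 3 arrays a group and signal near background for dim probe sets, differences of single probe sets can be missed, large ones included. In simulated data with few changed probe sets, a log2 change of 1 in Sfpq-/- against control was found for 5 of 100. A change of 2 was found for 59 of 100. For deviations from the gene mean, a change of 1 was found for 38 of 100.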
